A study of Mus musculus with 6 samples.

Results

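The genes for the proteins of the mitochondrial ribosome were taken as all genes whose symbol in the array annotation is Mrpl (large subunit) or Mrps (small subunit) followed by a number. This gave 75 genes, 46 of the large and 29 of the small subunit, out of 21585 genes with a symbol on the array. They were measured by 88 probe sets. For the 12 genes with several probe sets, the one with the highest mean over the 6 arrays was kept, so the mean level, but no difference between groups, entered the choice. All 75 stayed among the 17002 genes that were tested after the dimmest 25% of probe sets were left out.

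Mitochondria carry their own ribosome, which translates the few proteins encoded in mitochondrial DNA, all of them core subunits of the respiratory chain and of ATP synthase. The ribosomal RNAs come from mitochondrial DNA, whereas every ribosomal protein is encoded in the nucleus, made in the cytoplasm and imported. Some of these proteins descend from bacterial ribosomal proteins, and others were added in the mitochondrial lineage. In the lung, alveolar type II cells and ciliated airway cells are known to hold many mitochondria.

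The lungs came from C57BL/6 mice aged 8 weeks that were injected intraperitoneally each day for 7 days with 100 uL of medium. Control mice (replicates 2 and 4) were given plain RPMI culture medium. PC3 mice (replicates 4 and 5) were given conditioned medium of the human prostate cancer line PC3, and LN4 mice (replicates 1 and 3) that of PC3M-LN4, a line derived from PC3 that metastasises more. The medium thus came from human cells in a mouse host, and whole minced lungs were extracted, 1 mouse per array and 2 per group. Values are log2 values, on which a difference of 1 is a doubling, and their precision is limited by the number of arrays.

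The arrays differed in ways that cross the groups. The share of detected probe sets lay between 35.4% and 39.8% in Control 2, PC3 4 and LN4 1, called low-detection arrays here, and between 46.1% and 50.9% in Control 4, PC3 5 and LN4 3, called high-detection arrays. LN4 3 stood apart, with correlations across genes of 0.902 to 0.92 with the other arrays against 0.968 to 0.99 among those. The summed linear level of 6 stratified squamous markers was 43570 in LN4 3 and 3610 in PC3 4, against 233 to 340 in the other arrays. That of 6 skeletal muscle markers was 12540 in LN4 3 and 374 to 439 elsewhere, and that of 6 cardiomyocyte markers 2296 to 2824 in all arrays. The cardiomyocyte markers nevertheless differed between the LN4 lungs: their median deviation from each gene's mean was 0.47 in LN4 1, where 4 of 6 were highest, and -0.54 in LN4 3, where 5 of 6 were lowest, with Actc1 (10.89) the brightest there. Of 5 lung epithelium markers, Sftpc (surfactant protein C) lay between 13.86 and 14.04 in all arrays. Scgb1a1 (club cell secretory protein) read 13.64 in LN4 3 and 13.59 to 13.94 elsewhere, and Hopx 9.94 in LN4 3 and 9.78 to 10.11 elsewhere. In LN4 3 Sftpb (surfactant protein B) read 12.085, against 12.68 to 12.77 elsewhere, and Ager, of alveolar type I cells, 12.39, against 12.65 to 12.82. The part of these markers in the results below was not tested, and results are given with and without LN4 3 and PC3 4. In whole tissue, fewer cells of a type and less RNA per cell cannot be told apart.

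Promoter sequences are shown for the members on which the results turn: Mrpl22 and Mrpl9, which differed most between LN4 and PC3 lungs by p, Mrps24, the small subunit member with the widest such difference, and the paralogs Mrps18a, Mrps18b and Mrps18c. Each window runs from 250 bases before to 50 after the gene's start, on the gene's strand, from RefSeq on GRCm38.p6. Capitals mark the letters CCGGAAG (an ETS family motif, which GABP, also called NRF2, can bind), GCGCATGCGC (the full motif of NRF1) and AAGATGGCG (YY1), on either strand. Mrpl22 lies at chr11:58171414-58171713 on the plus strand and Mrpl9 at chr3:94443086-94443385 on the plus strand. Mrps24 lies at chr11:5707652-5707951 on the minus strand. Mrps18a lies at chr17:46110754-46111053 on the plus strand, Mrps18b at chr17:35916391-35916690 on the minus strand and Mrps18c at chr5:100798509-100798808 on the plus strand.
Mrpl22: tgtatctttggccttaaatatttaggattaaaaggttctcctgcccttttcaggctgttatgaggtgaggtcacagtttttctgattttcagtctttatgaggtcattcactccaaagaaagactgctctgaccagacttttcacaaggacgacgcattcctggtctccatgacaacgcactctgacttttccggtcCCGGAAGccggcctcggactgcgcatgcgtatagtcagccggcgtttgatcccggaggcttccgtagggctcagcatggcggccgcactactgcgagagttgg
Mrpl9: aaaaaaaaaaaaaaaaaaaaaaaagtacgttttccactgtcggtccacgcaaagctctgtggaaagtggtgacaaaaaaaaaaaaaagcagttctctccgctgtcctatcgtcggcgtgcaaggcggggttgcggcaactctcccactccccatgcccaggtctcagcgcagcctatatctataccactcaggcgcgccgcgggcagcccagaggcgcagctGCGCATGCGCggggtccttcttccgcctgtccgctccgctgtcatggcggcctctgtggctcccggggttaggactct
Mrps24: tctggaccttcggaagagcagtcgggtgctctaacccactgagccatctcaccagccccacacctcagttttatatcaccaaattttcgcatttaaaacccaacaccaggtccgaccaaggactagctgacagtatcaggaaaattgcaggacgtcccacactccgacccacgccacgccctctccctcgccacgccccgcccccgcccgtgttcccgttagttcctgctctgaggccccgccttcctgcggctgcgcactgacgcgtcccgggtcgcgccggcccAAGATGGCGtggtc
Mrps18a: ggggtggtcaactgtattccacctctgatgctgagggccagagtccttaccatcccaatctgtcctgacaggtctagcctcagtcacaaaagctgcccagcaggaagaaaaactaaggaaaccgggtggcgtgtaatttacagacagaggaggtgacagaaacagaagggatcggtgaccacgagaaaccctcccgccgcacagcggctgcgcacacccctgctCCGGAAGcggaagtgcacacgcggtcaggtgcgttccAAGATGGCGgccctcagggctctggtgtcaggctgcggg
Mrps18b: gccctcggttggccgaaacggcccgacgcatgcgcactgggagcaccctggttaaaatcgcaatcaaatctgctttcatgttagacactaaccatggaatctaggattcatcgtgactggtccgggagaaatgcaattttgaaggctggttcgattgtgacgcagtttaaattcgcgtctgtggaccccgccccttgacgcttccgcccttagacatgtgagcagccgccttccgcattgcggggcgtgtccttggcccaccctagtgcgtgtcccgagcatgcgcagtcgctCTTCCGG
Mrps18c: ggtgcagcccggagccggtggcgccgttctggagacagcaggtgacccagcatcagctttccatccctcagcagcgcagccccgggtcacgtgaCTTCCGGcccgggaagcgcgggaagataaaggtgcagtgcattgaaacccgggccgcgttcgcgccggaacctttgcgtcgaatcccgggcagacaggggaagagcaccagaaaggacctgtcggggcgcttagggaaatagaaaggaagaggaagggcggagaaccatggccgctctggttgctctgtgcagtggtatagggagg

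Counted from the start, the ETS letters began at -53 in Mrpl22 and at -26 in Mrps18a, and on the opposite strand at 44 in Mrps18b and -156 in Mrps18c. The NRF1 letters began at -28 in Mrpl9. The YY1 letters began at 37 in Mrps24 and at 12 in Mrps18a. Mrps18a was the only one of these 6 windows with letters of more than one of the 3 motifs.

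The members' signals reached from near background to well above it. Across genes, the brightness of a probe set depends on its probes, so the following sets each gene only against the array's own background, the 95th percentile of its 5222 negative control probe sets, which lay between 7.37 and 7.69. In every array 34 members (21 large, 13 small) were above that level, and 17 were above it in none. Among those 17 were Mrpl1, Mrpl22, Mrpl45, Mrps25 and Mrps31, named below. Mrpl16, Mrpl33, Mrpl42, Mrpl46 and Mrpl54 were above it in 1 array. Of the other lists given below, Wars2, Mtrf1l, Ddx28, Ppargc1a and Tfam stayed under it in every array. Among large subunit members the brightest probe sets were those of Mrpl24 (mean 9.66 over the 6 arrays), Mrpl39 (9.20) and Mrpl18 (9.19), and the dimmest those of Mrpl15 (6.37), Mrpl47 (6.18) and Mrpl22 (6.01). Among small subunit members they were Mrps21 (9.37), Mrps18c (8.94) and Mrps16 (8.87) against Mrps11 (6.22), Mrps27 (6.15) and Mrps36 (5.62). In LN4 3, 58 members were above background (77.3%, against 46.6% of tested genes). In the other arrays 41 to 44 were (54.7% to 58.7%, against 37.4% to 44.1%). LN4 3 also had the lowest background level, 7.37, against 7.49 to 7.69 in the other arrays, and the part of this in its count was not tested.

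**Figure D1:**
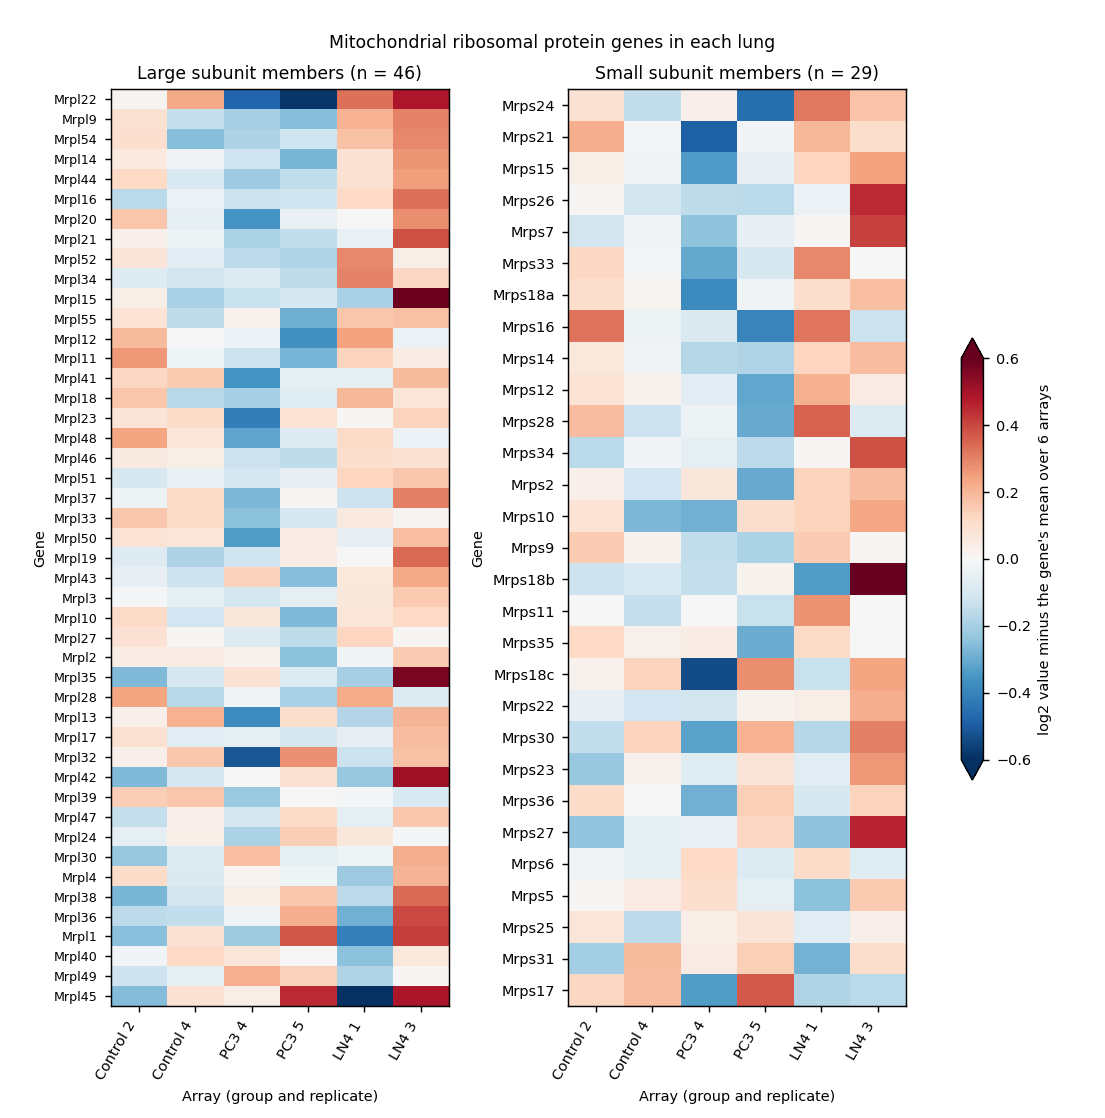
Each row is a gene and each column an array; colour is the log2 value minus the gene's mean over the 6 arrays, with genes sorted by the difference of LN4 and PC3 means. Most rows are blue in the PC3 arrays, and LN4 3 holds the highest value of 44 of the 75 members.

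In PC3 lungs, most members of both subunits had lower means than in Control lungs, by small amounts, and no member passed the test. Of the 75 members, 55 were lower and 20 higher, with a median difference of -0.10 (PC3 minus Control) against 0.016 over all tested probe sets. For the large subunit 35 were lower and 11 higher, with a median of -0.12. For the small subunit 20 were lower and 9 higher, with a median of -0.10. Both PC3 arrays lay below both Control arrays for 26 members (34.7%, against 15.3% of all tested probe sets) and above both for 7 (9.33%, against 16.4%). Of the members 0 reached an adjusted p under 0.05 in limma, as did 0% of all tested probe sets. At an unadjusted p under 0.05, 1 member was lower (1.33%, against 1.71% of probe sets) and 0 were higher (against 0.525%).

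The lower member at that unadjusted level was Mrpl22, a large subunit protein that lines the tunnel through which the growing chain leaves the ribosome. Its probe set (10376320) read 6.03 and 6.24 in the Control lungs (replicates 2 and 4), 5.54 and 5.43 in the PC3 lungs (replicates 4 and 5), and 6.34 and 6.50 in the LN4 lungs (replicates 1 and 3). Both PC3 values lay below all others and both LN4 values above all others, although the probe set stayed below the background level given above in every array. PC3 minus Control was -0.65 (SE 0.18), a mean 1.57-fold lower (limma, unadjusted p = 0.00916, adjusted p = 1). Without LN4 3 and PC3 4 the difference was -0.71 with an adjusted p of 0.0474. In that fit the single PC3 and LN4 arrays are assumed to vary like the Control pair, and 2.41% of all probe sets were called.

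The other large subunit members lowest by p in PC3 lungs were Mrpl48, Mrpl33, Mrpl41 and Mrpl11. Mrpl48, a protein of the central protuberance, read 8.79 and 8.62 in Control, 8.23 and 8.47 in PC3, and 8.66 and 8.51 in LN4 lungs. Its PC3 arrays were the lowest of the 6, and the difference was -0.35 (SE 0.19). Mrpl33, which has a bacterial counterpart, differed by -0.31 (SE 0.17) and read 7.57 and 7.52 in Control against 7.16 and 7.31 in PC3 lungs. Mrpl41, a protein added in the mitochondrial lineage, differed by -0.35 (SE 0.20), and its PC3 values of 7.617 and 7.920 overlapped those of the LN4 lungs, 7.915 and 8.166. Mrpl11, at the base of the stalk where translation factors dock, differed by -0.32 (SE 0.19), with PC3 values of 7.69 and 7.54 under all others.

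The 5 higher members of smallest p in PC3 lungs were all of the large subunit. They were Mrpl49 with a difference of 0.26 (SE 0.175), Mrpl38 with 0.29 (SE 0.22), Mrpl30 with 0.22 (SE 0.19), Mrpl36 with 0.25 (SE 0.26) and Mrpl42 with 0.23 (SE 0.26), all with unadjusted p of 0.177 or more. Mrpl49, a protein particular to mitochondrial ribosomes, read 7.72 and 7.79 in Control, 8.05 and 7.97 in PC3, and 7.66 and 7.85 in LN4 lungs. Its PC3 arrays were the highest of the 6. Mrpl38, a central protuberance protein like Mrpl48, read 7.77 and 7.94 in Control, 8.08 and 8.21 in PC3, and 7.89 and 8.39 in LN4 lungs, so its PC3 values lay above Control and inside the LN4 range. Within the low-detection arrays the median of all members was -0.16, and within the high-detection arrays -0.038. Without PC3 4 and LN4 3 the medians were -0.056 for the large and -0.065 for the small subunit, with 25 of 75 members higher. Of 4 leukocyte markers 3 had lower PC3 than Control means, with a median of -0.099, and the B cell marker Cd79a differed by -0.58 (limma, unadjusted p = 0.0267, adjusted p = 1). Their part in the members' difference was not tested.

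In LN4 lungs, most members had slightly higher means than in Control lungs, and that shift was seen in 1 pair of arrays and not in the other. Of the 75 members, 55 were higher and 20 lower, with a median difference of 0.087 (LN4 minus Control) against -0.016 over all tested probe sets. The medians were 0.090 for the large subunit (34 higher, 12 lower) and 0.087 for the small subunit (21 higher, 8 lower). Both LN4 arrays lay above both Control arrays for 21 members (28.0%, against 12.0% of probe sets) and below both for 3 (4.00%, against 16.9%). Of the members 0 were called (0% of probe sets), and at an unadjusted p under 0.05 there were 0 higher (against 0.849%) and 0 lower (against 1.20%) in limma. The median was -0.001 between the low-detection arrays and 0.20 between the high-detection arrays, the latter pair holding LN4 3. Without LN4 3 it was 0.009 for the large and 0.073 for the small subunit, with 44 of 75 members higher. The brown fat markers Ucp1 and Cidea read 5.36 and 6.45, and 5.97 and 6.24, in the LN4 lungs against 4.51 to 4.94 and 5.25 to 5.79 in the other lungs, all below the background level. The endothelial markers Pecam1, Cdh5 and Kdr had a summed linear level of 2844 to 3841 in LN4 and 4136 to 4360 in Control lungs. That of the leukocyte markers Ptprc, Cd79a, Cd3e and Itgam was 587 to 760 in LN4 and 921 to 1028 in Control lungs. All 4 had lower LN4 means, with a median of -0.40, among them Ptprc, the leukocyte antigen CD45, at -0.70 (limma, unadjusted p = 0.0258, adjusted p = 0.9997) and Cd79a at -0.70 (unadjusted p = 0.0122, adjusted p = 0.9997). Of the 5 lung epithelium markers 4 were lower, with a median of -0.13. Their median was 0.022 in the low-detection pair and -0.285 in the high-detection pair, which holds LN4 3. In the same order it was -0.068 and -0.578 for the endothelial markers and -0.165 and -0.651 for the leukocyte markers. The part of these markers in the members' shift was not tested.

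The 5 higher members of smallest p in LN4 against Control lungs were all of the large subunit. Mrpl16, whose bacterial counterpart helps place transfer RNA, read 7.08 and 7.21 in Control, 7.11 and 7.13 in PC3, and 7.36 and 7.58 in LN4 lungs, a difference of 0.325 (SE 0.18) from Control. Mrpl34 differed by 0.30 (SE 0.17) with LN4 values of 7.98 and 7.80 against 7.60 and 7.57, and Mrpl54 by 0.31 (SE 0.19). Mrpl22 differed by 0.285 (SE 0.18) and Mrpl9 by 0.28 (SE 0.18). For these 5 genes both LN4 arrays were above both Control arrays. The member lowest by p was Mrps17, a small subunit protein with a bacterial counterpart, which read 7.91 and 7.97 in Control and 7.60 and 7.63 in LN4 lungs, a difference of -0.33 (SE 0.25). Its PC3 values, 7.45 and 8.16, lay on either side of both groups. Mrpl39 differed by -0.21 (SE 0.18), Mrpl40 by -0.14 (SE 0.19), Mrpl48 by -0.12 (SE 0.19) and Mrpl33 by -0.099 (SE 0.17).

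The widest separation was between LN4 and PC3 lungs, where both subunits had higher means with LN4 medium. Of the 75 members, 64 were higher and 11 lower, with a median difference of 0.21 (LN4 minus PC3) against -0.014 over all tested probe sets. The large subunit had a median of 0.21 (39 higher, 7 lower) and the small subunit 0.25 (25 higher, 4 lower). Both LN4 arrays lay above both PC3 arrays for 36 members (48.0%, against 11.4% of probe sets). They lay below both for 2, Mrpl49 and Mrps25 (2.67%, against 18.1%). Of the members 0 were called by limma (0% of probe sets), with a smallest adjusted p of 0.842. At an unadjusted p under 0.05, 2 members were higher (2.67%, against 2.20%) and 0 lower (against 2.93%), so at that level the share of members was near the background.

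**Figure D2:**
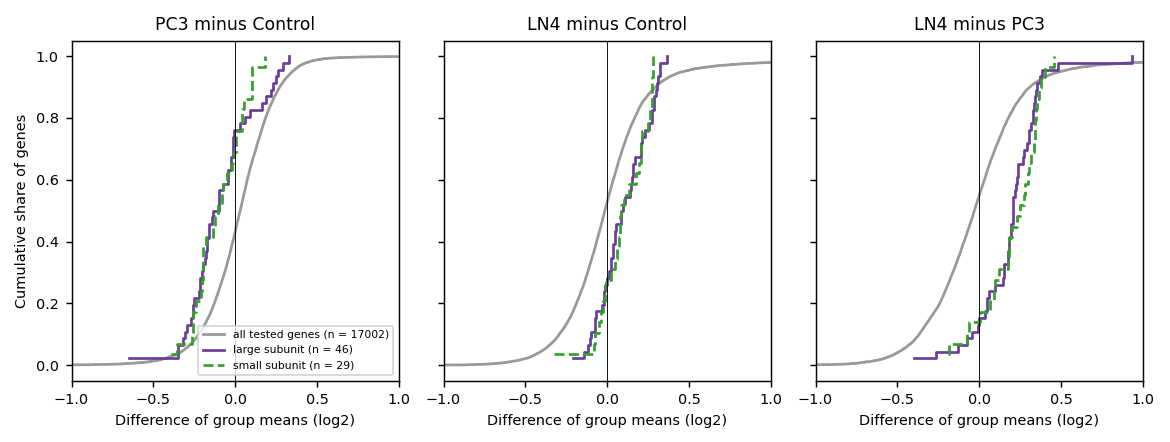
Cumulative share of genes (vertical axis) by the log2 difference of group means (horizontal axis, drawn from -1 to 1) for large subunit members, small subunit members and all 17002 tested genes. In LN4 minus PC3 both member curves run to the right of all genes, with medians of 0.21 and 0.25; in PC3 minus Control they run to the left.

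The separation of LN4 from PC3 lungs was similar in both pairs of arrays matched on detection: the median over all members was 0.20 for the arrays of low detection and 0.22 for those of high detection, with 56 and 66 of 75 members higher. Each of these pairs holds an array with squamous genes, PC3 4 in the first and LN4 3 in the second. Without both, LN4 1 (35.4% detected) stood against PC3 5 (50.9%), so that comparison is not matched on detection. Its medians were 0.079 for the large and 0.127 for the small subunit, with 45 of 75 members higher. Without LN4 3 alone they were 0.136 and 0.151, and without PC3 4 alone 0.179 and 0.168. Among the 34 members above the negative controls in every array, the medians with all arrays were 0.22 for the large and 0.33 for the small subunit. Lower in LN4 than in PC3 lungs were 3 of 4 leukocyte markers (median -0.17), 3 of 3 endothelial markers (median -0.10) and 4 of 5 lung epithelium markers (median -0.062). The endothelial and epithelial medians were 0.281 and 0.051 in the low-detection pair, and -0.485 and -0.287 in the high-detection pair. All 6 squamous, all 6 skeletal muscle and all 2 brown fat markers had higher LN4 means, each highest in LN4 3. Of 6 cardiomyocyte markers 3 were higher and 3 lower. Ptprc differed by -0.66 (limma, unadjusted p = 0.0327, adjusted p = 0.842) and Kdr by -0.51 (unadjusted p = 0.0366, adjusted p = 0.842). The summed linear level of the leukocyte markers was 587 to 760 in LN4 and 832 to 981 in PC3 lungs. That of the endothelial markers was 2844 to 3841 and 3644 to 4136. Their part in the separation was not tested.

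Mrpl22 and Mrpl9 were the 2 higher members at the unadjusted level. For Mrpl22, LN4 minus PC3 was 0.94 (SE 0.18), a mean 1.91-fold higher (limma, unadjusted p = 0.00138, adjusted p = 0.842), and it was the 1 member that differed by more than 0.5. Without LN4 3 and PC3 4 the difference was 0.915, between LN4 1, of low detection, and PC3 5, of high detection. Mrpl9 (probe set 10494060), the counterpart of a bacterial protein of the large subunit, read 8.09 and 7.85 in Control, 7.79 and 7.74 in PC3, and 8.20 and 8.29 in LN4 lungs. The 3 groups did not overlap, and LN4 minus PC3 was 0.48 (SE 0.18, limma, unadjusted p = 0.0318, adjusted p = 0.842).

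Among the next members by p, Mrpl14, which lies at the interface of the subunits, read 8.70 and 8.63 in Control, 8.52 and 8.37 in PC3, and 8.73 and 8.91 in LN4 lungs, and LN4 minus PC3 was 0.37 (SE 0.18). Mrps15, a small subunit protein with a bacterial counterpart, read 8.81 and 8.76, 8.44 and 8.73, and 8.90 and 9.02 in the same order, and differed by 0.38 (SE 0.19). In both genes the 3 groups followed one another without overlap, PC3 lowest and LN4 highest. Mrps24, the counterpart of bacterial S3 at the entry of the messenger RNA, read 7.75 and 7.51 in Control, 7.69 and 7.21 in PC3, and 7.98 and 7.83 in LN4 lungs. Its difference was 0.45 (SE 0.22), and its 2 PC3 lungs were further apart than its Control or LN4 lungs. Mrpl12, which forms the flexible stalk and also binds the mitochondrial RNA polymerase in human cells, read 8.13 and 7.94, 7.91 and 7.58, and 8.19 and 7.91, and differed by 0.30 (SE 0.21).

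Of the 5 members lowest in LN4 against PC3 lungs by p, Mrpl49 was the one whose arrays did not overlap, with a difference of -0.26 (SE 0.175). Mrpl45, which tethers the ribosome to the inner membrane, differed by -0.40 (SE 0.41), and read 6.44 and 6.79 in Control, 6.73 and 7.15 in PC3, and 5.90 and 7.19 in LN4 lungs. Its LN4 lungs held both the lowest and the highest value, the widest range of any member (1.29), and every value lay below the background level. Mrps17 differed by -0.19 (SE 0.25), Mrps31 by -0.18 (SE 0.22) and Mrpl40 by -0.13 (SE 0.19), each with overlapping arrays.

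**Figure D3:**
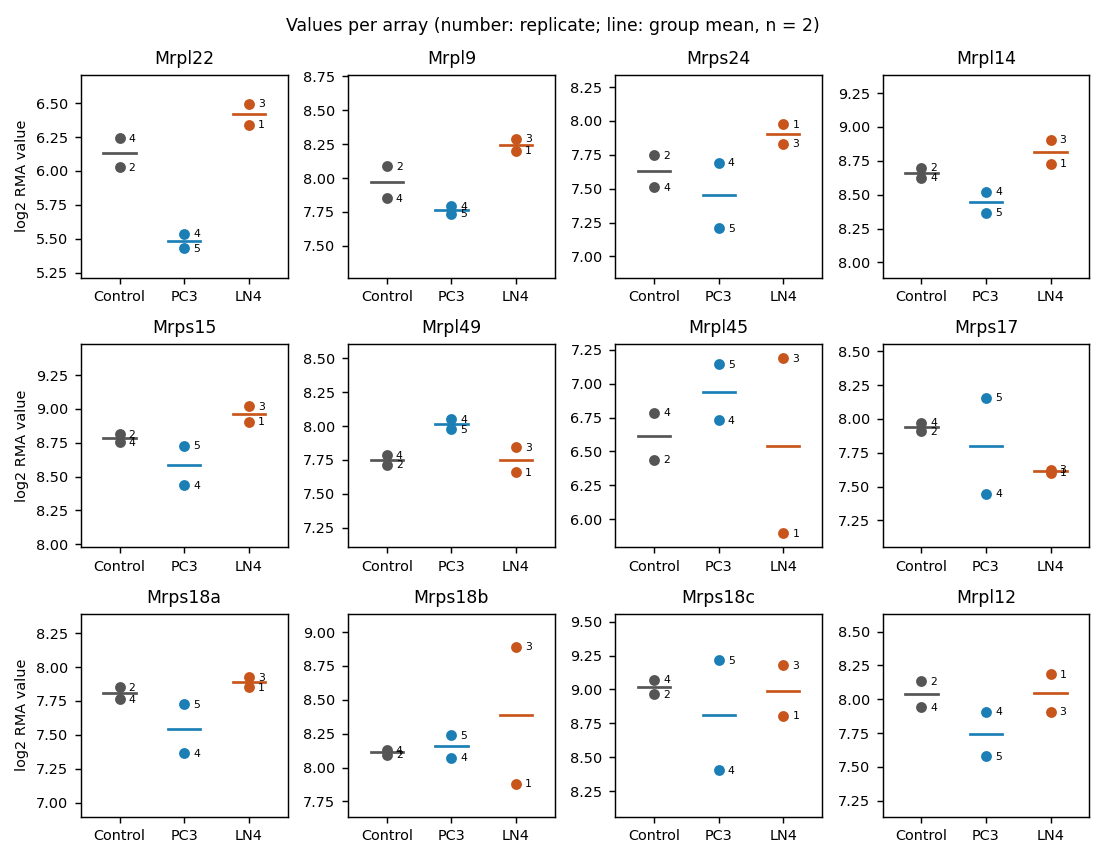
Log2 RMA value of 12 named members in each array; points are arrays labelled by replicate number and lines are group means (n = 2), with vertical axes of different position for each gene. Mrpl22, Mrpl9, Mrpl14 and Mrps15 have their PC3 arrays below all others, while Mrpl45 and Mrps18b are spread widest between the 2 LN4 arrays.

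Mrps18a, Mrps18b and Mrps18c descend from 1 bacterial protein, S18, and structures place Mrps18a in the large subunit in spite of its name. Mrps18a read 7.85 and 7.76 in Control, 7.36 and 7.72 in PC3, and 7.85 and 7.92 in LN4 lungs, so that both PC3 arrays were the lowest, and LN4 minus PC3 was 0.34 (SE 0.19). Mrps18b read 8.10 and 8.13, 8.07 and 8.24, and 7.88 and 8.89, with a difference of 0.23 (SE 0.32) that turned to -0.27 without LN4 3. Mrps18c read 8.96 and 9.07, 8.40 and 9.22, and 8.81 and 9.18, with a difference of 0.18 (SE 0.29) that turned to -0.23 without PC3 4 and to -0.004 without LN4 3. The higher LN4 mean of Mrps18b thus stood in LN4 3, and that of Mrps18c needed both PC3 4 and LN4 3, while both LN4 arrays of Mrps18a lay above both PC3 arrays. The assignment to subunits mattered little: with Mrps18a and Mrps30 counted as large and Mrps36, now known as a part of the 2-oxoglutarate dehydrogenase complex, left out, the LN4 minus PC3 medians were 0.21 for 48 large and 0.26 for 26 small subunit members.

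Seen array by array, the median deviation of the 75 members from each gene's own mean was 0.037 and -0.027 in the Control lungs, -0.12 and -0.060 in PC3 4 and PC3 5, and 0.038 and 0.18 in LN4 1 and LN4 3. Both PC3 arrays were thus the lowest, and LN4 1 stood level with Control 2. Both PC3 arrays lay below all 4 others for 20 members (26.7%, against 4.8% of tested genes and 5.91% of probe sets). These were 12 of the large subunit (Mrpl9, Mrpl11, Mrpl12, Mrpl14, Mrpl21, Mrpl22, Mrpl27, Mrpl33, Mrpl44, Mrpl46, Mrpl48 and Mrpl52) and 8 of the small subunit (Mrps9, Mrps12, Mrps14, Mrps15, Mrps18a, Mrps21, Mrps26 and Mrps33), a list named after its values were seen. The lowest array was a PC3 array for 51 members (68.0%, against 31.5% of tested genes), and the highest an LN4 array for 56 (74.7%, against 40.2%), in 44 of them LN4 3. The means stood in the order PC3, Control, LN4 for 37 members (49.3%, against 15.8% of tested genes).

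Mrps12, which sits at the decoding centre, was 1 of these 20 and read 7.73 and 7.68 in Control, 7.59 and 7.34 in PC3, and 7.86 and 7.70 in LN4 lungs. Mrpl46, a further protein of the central protuberance, had the narrowest range among large subunit members (0.252) and still set both PC3 arrays, 7.29 and 7.26, apart from 7.45 to 7.52 in the other 4. The members of narrowest range over all were Mrps6 (0.202) and Mrps25 (0.234), in neither of which both PC3 lungs stood lowest. Between lungs of 1 group the members differed by a median of -0.054 (Control 4 minus Control 2), 0.052 (PC3 5 minus PC3 4) and 0.16 (LN4 3 minus LN4 1), and in the last 53 of 75 were higher in LN4 3. The gap between the LN4 lungs was therefore of the size of the median difference between LN4 and PC3 lungs. The members' median residual SD, 0.161, was below the 0.217 of all tested probe sets.

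A further 13 probe sets of the 12 members with more than 1, which the choice of members did not use, differed for LN4 minus PC3 with 12 higher and 1 lower, a median of 0.18 and the same sign as the brightest probe set in 11. They come from the same RNA, so they are not independent of it. Either kind of probe set, the brightest ones included, can lie in a retrocopy or a close relative of the gene, and which one reads the gene itself was not tested. This holds for Mrpl27, Mrpl48 and Mrps33, named above for their low PC3 arrays. In the second probe set of Mrpl27, PC3 5 (7.32) lay above Control 4 (7.21) and LN4 3 (7.26). That of Mrps33 also had both PC3 arrays lowest, at 7.97 and 8.15. For PC3 minus Control 9 of the 13 were lower and 4 higher, with a median of -0.041, and for LN4 minus Control 9 were higher and 4 lower, with a median of 0.10. The 2 probe sets of Mrps33 differed by 0.35 and 0.37 in LN4 minus PC3, and those of Mrpl23 by 0.24 and 0.18. The 3 probe sets of Mrpl48 disagreed for PC3 minus Control, at -0.35, 0.23 and 0.048, so its difference there belongs to the brightest probe set alone. The same holds for Mrpl41, whose second probe set differed by -0.027 in PC3 minus Control against -0.35 for the brightest, and whose mean over both gave -0.19.

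A list of 8 measured genes held mitoribosomal proteins that bear other symbols and Oxa1l, a membrane insertase that is not a ribosomal protein. LN4 minus PC3 was higher for 7 of the 8 and lower for 1, with a median of 0.086. Oxa1l was among the higher ones, at 0.031. Chchd1, a small subunit protein, gave the widest differences of the list. It read 8.41 and 8.26 in Control, 7.42 and 7.80 in PC3, and 8.52 and 8.06 in LN4 lungs, so both PC3 arrays were the lowest. PC3 minus Control was -0.72 (SE 0.23, limma, unadjusted p = 0.0177, adjusted p = 1), and LN4 minus PC3 0.68 (SE 0.23, unadjusted p = 0.0231). Dap3, a small subunit protein that binds GTP, had a spread between its LN4 lungs (6.73 and 7.70) that exceeded any difference between its group means, the widest of which was -0.073.

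Other genes of mitochondrial translation did not all share the pattern. A list of 15 translation factors and related genes also held Slirp, Lrpprc, Taco1 and Mtfmt, which are not translation factors in the narrow sense. Over these 15, LN4 minus PC3 was higher for 12 and lower for 3, with a median of 0.094. PC3 minus Control was higher for 11 and lower for 4, with a median of 0.084. Slirp, an RNA-binding partner of Lrpprc that stabilises mitochondrial messengers, read 8.03 and 8.00 in Control, 7.59 and 7.79 in PC3, and 8.35 and 8.16 in LN4 lungs, and differed by 0.57 (SE 0.18, limma, unadjusted p = 0.0165) between LN4 and PC3. Its 3 groups did not overlap. Tsfm, the exchange factor of the elongation factor Tufm, read 7.21 and 7.11 in Control, 7.43 and 7.13 in PC3, and 7.56 and 7.81 in LN4 lungs, and differed by 0.53 (SE 0.20) between LN4 and Control. Mtrf1l, a release factor, was the factor of smallest p in the other direction, at -0.36 (SE 0.21) for LN4 minus PC3.

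Of 20 genes of the mitochondrial aminoacyl-tRNA synthetases and amidotransferase, which charge the transfer RNAs, PC3 minus Control was higher for 16 and lower for 4, with a median of 0.077. LN4 minus PC3 was higher for 12 and lower for 8, with a median of 0.055. Wars2, for tryptophan, read 6.88 and 6.78 in Control, 6.88 and 6.89 in PC3, and 6.58 and 6.26 in LN4 lungs, and differed by -0.47 (SE 0.19, limma, unadjusted p = 0.0436). Of 23 assembly factors, LN4 minus PC3 was higher for 13 and lower for 10, with a median of 0.043. Ddx28, an RNA helicase of large subunit assembly, differed by 0.60 (SE 0.21), and Nsun4, a methyltransferase of the small subunit RNA that also joins in assembly, by -0.43 (SE 0.18). Both lists thus had medians nearer to 0 than the 0.21 of the ribosomal proteins, a difference between lists that was not tested.

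**Figure D4:**
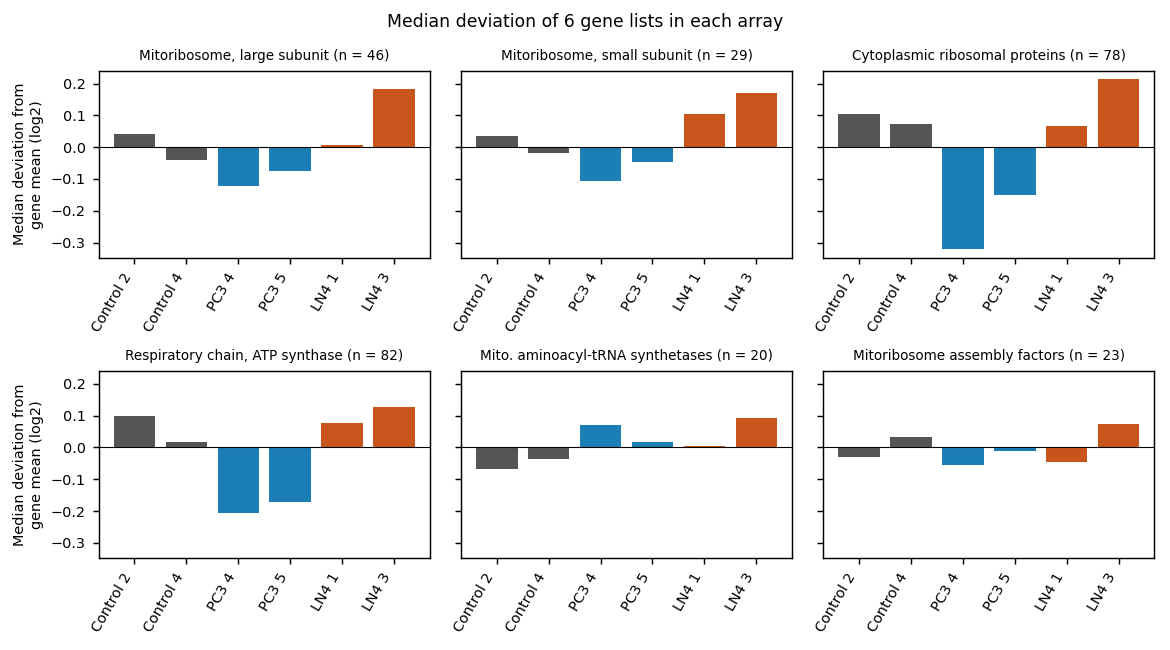
Median deviation (log2) of the genes of 6 lists from each gene's mean over the 6 arrays, 1 bar per array, with n the number of tested genes. PC3 4 and PC3 5 are the lowest arrays for both mitoribosomal subunits, the cytoplasmic ribosomal proteins and the respiratory chain, and not for the synthetases.

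The proteins of the cytoplasmic ribosome and of the respiratory chain and ATP synthase, which the mitochondrial ribosome helps to build, are given beside the members for scale. LN4 minus PC3 had a median of 0.41 over 78 cytoplasmic ribosomal protein genes (75 higher, 3 lower) and 0.35 over 82 respiratory chain and ATP synthase genes (74 higher, 8 lower). PC3 minus Control had medians of -0.32 and -0.25. The arrays of LN4 lungs lay above those of PC3 lungs for 67.9% and 61.0% of these genes, against 48.0% of the members and 11.4% of all probe sets. For LN4 minus Control the medians were 0.047 and 0.064. The differences between these lists and the members were not tested.

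Genes that regulate mitochondrial content showed no shared direction between LN4 and PC3 lungs. Over 10 biogenesis regulators LN4 minus PC3 was higher for 5 and lower for 5, with a median of -0.0017. PC3 minus Control was higher for 7 and lower for 3, with a median of 0.070. Ppargc1a, the coactivator PGC-1alpha, read 6.35 and 6.36 in Control, 5.99 and 6.34 in PC3, and 6.57 and 5.97 in LN4 lungs. Nrf1, which binds the NRF1 motif, lay between 7.15 and 7.39 in all 6 lungs, below each array's background level. Gabpa, the DNA-binding subunit of GABP, lay between 7.91 and 8.24. Myc read 8.74 in LN4 3 and 6.38 to 6.72 in the other lungs, so its LN4 minus Control difference of 1.26 (SE 0.57) stood in 1 array. Of mitochondrial DNA expression genes, LN4 minus PC3 was higher for 5 of 8, with a median of 0.15. PC3 minus Control was higher for 2 and lower for 6, with a median of -0.021. Ssbp1, of smallest p among these 8 in both comparisons, differed by 0.37 (SE 0.21) and -0.41 (SE 0.21). Its PC3 arrays were the lowest of the 6. In LN4 minus PC3, Tfam, the mitochondrial transcription factor that packs the DNA, differed by 0.17 (SE 0.32), and Polrmt, the mitochondrial RNA polymerase, by -0.071 (SE 0.22).

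Promoter windows were found for 66 members in the RefSeq table. Searched on both strands, the ETS letters CCGGAAG stood in 22 windows (33.3%), against 11.9% of 17492 protein-coding genes. The 6 letters TGCGCA, the core of the NRF1 motif, which the full motif can overlap as in Mrpl9, stood in 19 (28.8%, against 10.1%), and the full NRF1 letters GCGCATGCGC in 3 (4.5%, against 1.3%), all of the large subunit. The YY1 letters AAGATGGCG stood in 8 (12.1%, against 1.9%). Letters of general promoter motifs were near the level of other genes: GGGCGG (Sp1) in 50.0% against 46.3%, CCAAT in 39.4% against 39.0% and CACGTG (E-box) in 7.6% against 7.9%. TATAAA stood in 6.1% against 13.3%.

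Members with and without these letters had similar medians for LN4 minus PC3. It had a median of 0.25 for the 22 members with the ETS letters and 0.20 for the 44 without, and 0.24 for the 19 with TGCGCA against 0.21 for the 47 without. For the 8 members with the YY1 letters it was 0.19 against 0.23, and their PC3 minus Control median was 0.094 against -0.14 for the 58 without. These are descriptions over few genes, and none was tested.

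**Figure D5:**
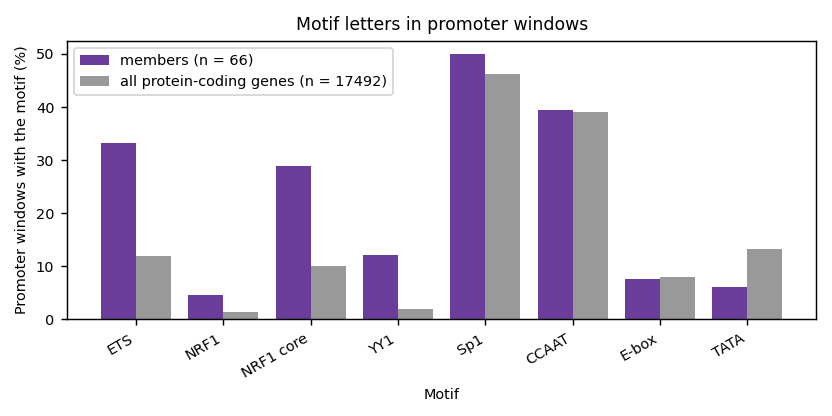
Share of promoter windows (%) that hold each motif's letters on either strand, for 66 members and 17492 protein-coding genes. The ETS, NRF1, NRF1 core and YY1 bars of the members stand above those of all coding genes, and the Sp1, CCAAT and E-box bars are near them.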

How the data were processed

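Total RNA of 6 lungs was labelled from 10 ug and hybridised to mouse gene arrays. The authors deposited log2 values that, per the submitters' processing notes, were made with RMA, which lets each value depend on all arrays (version not given in the sources used here). Both deposited tables held equal values (within 0.0001) for all 35556 probe sets. The deposited chip report gives, per the file headers, the percent of detected probe sets, used here, and mean intensity, score (residuals, relative expression) and fraction (area under the curve) columns, which were read for array quality only. Without 7116 controls and without the dimmest 25% of the rest by mean, 21330 probe sets were tested. Of 28440 non-control probe sets 24872 had 1 symbol, 134 several and 3434 none.

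A limma model of 3 group means was fitted to the 6 arrays (prior degrees of freedom 3.885, residual 3, two-sided), and p-values were adjusted over the 21330 probe sets by Benjamini-Hochberg at 0.05. The labels do not say whether mice of a group shared a cage or injection batch, so p-values measure only the spread between these lungs. Lists are described by counts and medians. Their background is mostly all tested probe sets, whereas members hold 1 probe set a gene. Over the 17002 tested genes the medians were 0.031 (PC3 minus Control), -0.015 (LN4 minus Control) and -0.030 (LN4 minus PC3). Of these genes, 13.6% had both PC3 below both Control arrays, 12.4% both LN4 above both Control and 10.3% both LN4 above both PC3 arrays. Members and lists were chosen with earlier results of these data known. Named were, per comparison, the 5 higher and 5 lower members of smallest unadjusted p, the 3 brightest and 3 dimmest per subunit, the 3 widest and 3 narrowest in range, Mrps18a, Mrps18b, Mrps18c and Mrpl12, and of other lists the gene of smallest p per direction; not all are printed. Motif letters were searched as printed. R 4.3.3, limma 3.58.1, Python 3.11.15 and matplotlib 3.10.9 were used.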

Additional observations from a re-analysis of the deposited data

How the results depend on the processing

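Alternatives were another filter on dim probe sets, the mean of all probe sets of a gene, an intensity trend, array weights, the detection share as a covariate, a common median, fits of 2 groups, leaving out arrays, and pairs matched on detection, which hold 1 array a group and give no test. In each comparison 0 members were called under the tested alternatives except without both LN4 3 and PC3 4. Of all probe sets, 853 (4.00%) were called in LN4 minus Control and 715 (3.35%) in LN4 minus PC3 without LN4 1, and 0 in the other fits that kept LN4 3 or PC3 4. Without both, 1 was called in PC3 minus Control (Mrpl22, -0.706) and 5 in LN4 minus PC3 (Mrpl22 at 0.915, Mrps24 at 0.769, Mrps16 at 0.72, Mrpl1 at -0.779 and Mrpl45 at -1.249), with 514 and 2593 of all probe sets (and 200 in LN4 minus Control), and the spread comes from the Control pair alone. The subunit medians kept their sign under all alternatives, except the large subunit in LN4 minus Control at -0.021 in the low-detection pair. In LN4 minus Control the large subunit median was 0.234 in the high-detection pair, 0.009 without LN4 3 and PC3 4, and 0.009 to 0.201 with 1 array left out. The small subunit median was 0.002 in the low- and 0.162 in the high-detection pair, and 0.073 to 0.155 with 1 array left out. In LN4 minus PC3 the small subunit median was 0.189 in the low-detection pair, 0.127 without both arrays, 0.333 over members above background in every array, and 0.151 to 0.264 with 1 array left out. The large subunit median was 0.079 without both arrays and 0.136 to 0.265 with 1 left out. In PC3 minus Control the small subunit median was -0.028 in the high-detection pair and -0.196 over members above background. Without both LN4 3 and PC3 4, LN4 minus PC3 sets LN4 1, of low detection, against PC3 5, of high detection. The cause of these moves was not tested. The alternatives over members above background and with Mrps18a, Mrps30 and Mrps36 reassigned, and the counts of members higher, were added after seeing the data.

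Single genes changed sign under some alternatives. Mrpl48 (LN4 minus Control) was at 0.154 as the mean of its probe sets, against -0.115 for the brightest, with all arrays kept. In LN4 minus PC3, the low-detection pair gave 0.156 for Mrps17 and -0.192 for Mrps18b, and the high-detection pair 0.043 for Mrpl45, 0.063 for Mrpl40 and -0.041 for Mrps18c. With 1 array left out, Mrps18c lay between -0.226 and 0.59 (-0.004 without LN4 3), Mrps18b between -0.274 and 0.735, Mrps17 between -0.541 and 0.166, Mrpl45 between -1.042 and 0.25, Mrps31 between -0.377 and 0.009, and Mrpl40 between -0.283 and 0.027. Without both LN4 3 and PC3 4, Mrps18b was at -0.355, Mrps18c at -0.412, Mrps17 at -0.551, Mrps31 at -0.425 and Mrpl40 at -0.247. In LN4 minus Control, Mrpl40 lay between -0.298 and 0.012 with 1 array left out. No paired analysis was possible because Control and PC3 share only replicate number 4 and LN4 shares none with either.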
